A study of Rattus norvegicus with 8 samples.

Results

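Neuropeptides are short signaling peptides that neurons cut from longer precursor proteins, store in dense-core vesicles and release during strong firing, and their precursor genes are classic targets of seizure activity in the hippocampus. Transcripts of 8 such genes were taken by NCBI GeneID from the 22601 genes measured in each library, namely *Npy*, *Sst*, *Vip*, *Cck*, *Pdyn*, *Crh*, *Adcyap1* and *Gal*. Of these, 7 were above 0 in every library and were tested, and *Npy* was listed at 0 throughout. In the PTZ group the FPKM of *Cck*, *Vip* and *Crh* was higher than in the Con. group. The libraries of the groups did not overlap in these genes, and 9.15% of all tested genes had groups apart in either direction. The differences of *Cck*, *Vip* and *Crh* were not called without Con.-3 or without PTZ-3. Nor were they called within the Con. and PTZ libraries low in striatum markers. In the Q808 group *Pdyn* was lower than in both other groups, and *Cck* was lower than in the PTZ group. No adjusted p-value of a member passed 0.05 in any of the 3 comparisons of whole groups, and the calls rest on unadjusted p-values.

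The libraries came from the hippocampus of wild type Wistar rats of 180 to 220 g, with 1 library per rat. The 3 Con. rats received saline and then the solvent of Q808. The 3 PTZ rats were kindled with repeated sub-convulsive doses of pentylenetetrazole (PTZ), a blocker of GABA-A receptors, and then received solvent. The 2 Q808 rats were kindled in the same way and then received Q808, a tetrazolophthalazine compound, by gavage. PTZ and Q808 rats, but not Con. rats, had a last PTZ dose shortly before tissue was taken, so the lasting state after kindling and the response to the last dose cannot be told apart. With 2 or 3 rats in a group, p-values measure the spread between those rats only.

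In the hippocampus most of these peptides belong to GABAergic interneurons. Somatostatin, CCK and VIP serve as markers of interneuron classes, among them cells that contact dendrites, cell bodies or other interneurons. Dynorphin, made from *Pdyn*, is stored in the mossy fibers of dentate granule cells and acts on the kappa opioid receptor to dampen glutamate release. PACAP, made from *Adcyap1*, is a relative of VIP and shares its receptors VPAC1 and VPAC2.

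The libraries did not hold equal tissue. The mean of 6 striatum marker genes, on log2(FPKM + 0.1), lay between 1.56 and 2.48 in 5 libraries and between 6.20 and 7.35 in the other 3, which were Con.-3, PTZ-3 and Q808-1. The mean of 5 dentate granule cell markers was also low in the 3 striatum-rich libraries. It was 0.39 to 0.59 there against 1.76 to 2.09 in the 5 striatum-poor libraries. *Prox1* and *C1ql2* of this list separated the sets. *Dock10* and *Dsp* overlapped, and *Tdo2* was at 0.150 FPKM or less in every library. Each group held at least 1 library of each kind, so PTZ and Con. were also compared within the striatum-poor libraries (Con.-1, Con.-2, PTZ-1, PTZ-2 and Q808-2). Choroid plexus transcripts varied as well, and the summed FPKM of 6 markers reached 2526 in Con.-1, 2499 in Con.-2 and 6409 in Q808-2, against 90.5 to 488 elsewhere. The summed FPKM of 4 pan-neuronal markers was lowest in Q808-1, at 835 against 1107 to 1782 elsewhere. That of 8 oligodendrocyte markers was highest in Q808-1, at 13758 against 2681 to 7054 elsewhere. In such bulk tissue, fewer cells of a type and less RNA per cell cannot be told apart.

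**Figure D1:**
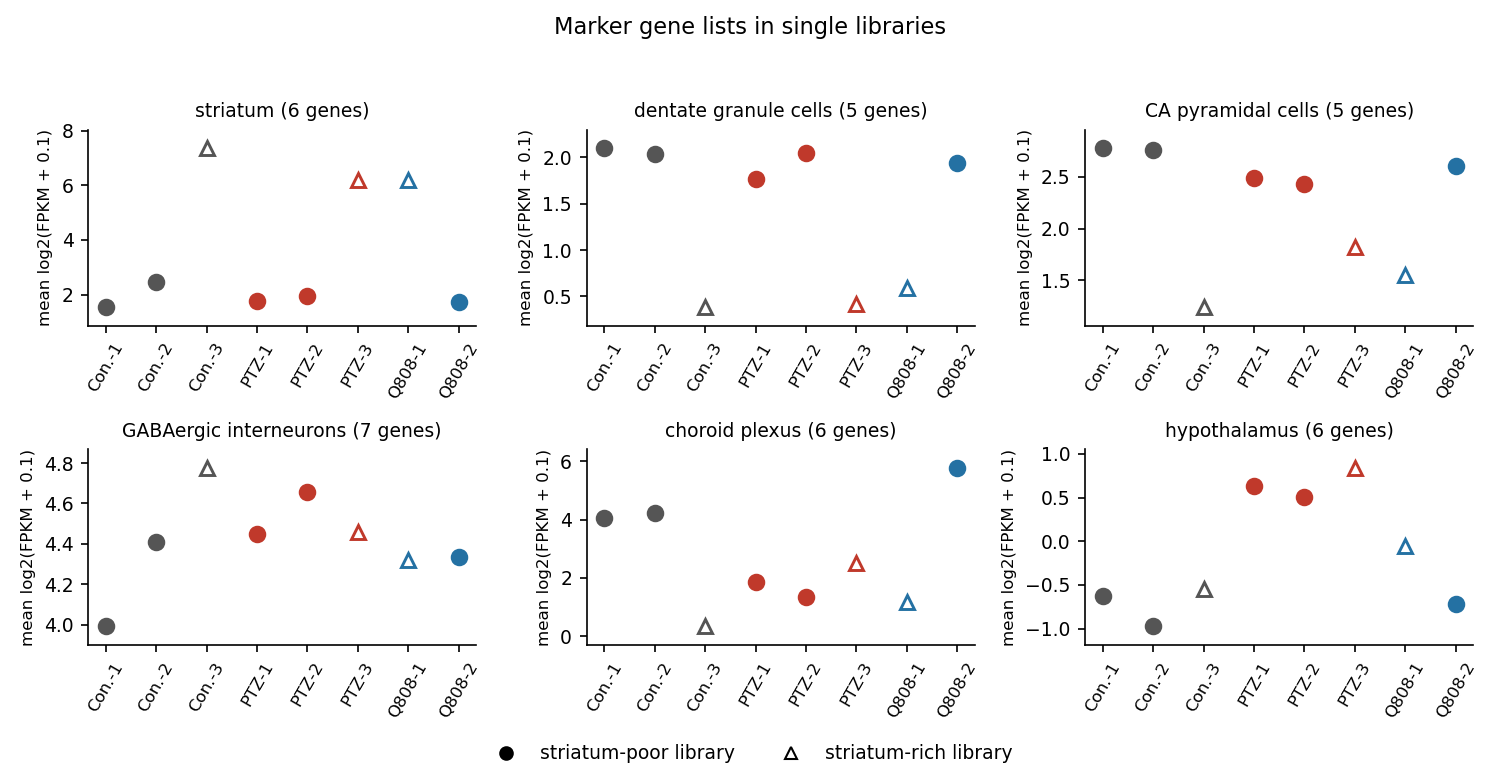
Mean log2(FPKM + 0.1) of 6 marker gene lists in each library, with circles for striatum-poor and open triangles for striatum-rich libraries; the vertical scales differ and do not start at 0. Con.-3, PTZ-3 and Q808-1 were high in striatum markers and low in the mean of the dentate granule cell list. The mean of the hypothalamus list was highest in the 3 PTZ libraries.

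Levels spanned a wide range. FPKM is scaled by transcript length, so levels can be set side by side between genes. Mean FPKM over the 8 libraries was 155 ± 50.4 (SD, n = 8) for *Sst*, 119 ± 43.5 for *Cck*, 41.6 ± 17.9 for *Pdyn* and 11.6 ± 3.28 for *Vip*. *Adcyap1* at 3.24 ± 1.84, *Gal* at 3.04 ± 1.48 and *Crh* at 1.75 ± 0.748 were the lowest of those detected. The ranges of neighbors in this order overlapped except between *Pdyn* and *Vip*. *Sst* exceeded *Cck* in 6 of 8 libraries, and *Adcyap1* exceeded *Gal* in 4 of 8. *Sst* lay above 97.4% of the 15593 tested genes and *Crh* above 25.9%.

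*Npy*, which encodes an inhibitory peptide of interneurons, was listed at 0 in all 8 libraries. The same held for 4170 of 22601 genes (18.5%), among them genes that every cell uses, such as *Polr2h*, *Surf1* and *Mrpl36*. The zeros therefore cannot be read as absent transcripts. A separate entry described in the files as pro-neuropeptide Y-like (GeneID 100912228) had 0.608, 0.512 and 1.72 FPKM in Con.-1 to Con.-3, between 0.854 and 1.20 in the PTZ libraries, 18.4 in Q808-1 and 0.352 in Q808-2. Only Q808-1 stood far from the others in this entry. Reads from near-identical copies could be divided between entries, so both rows are uncertain and no fold change is given for either.

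**Figure D2:**
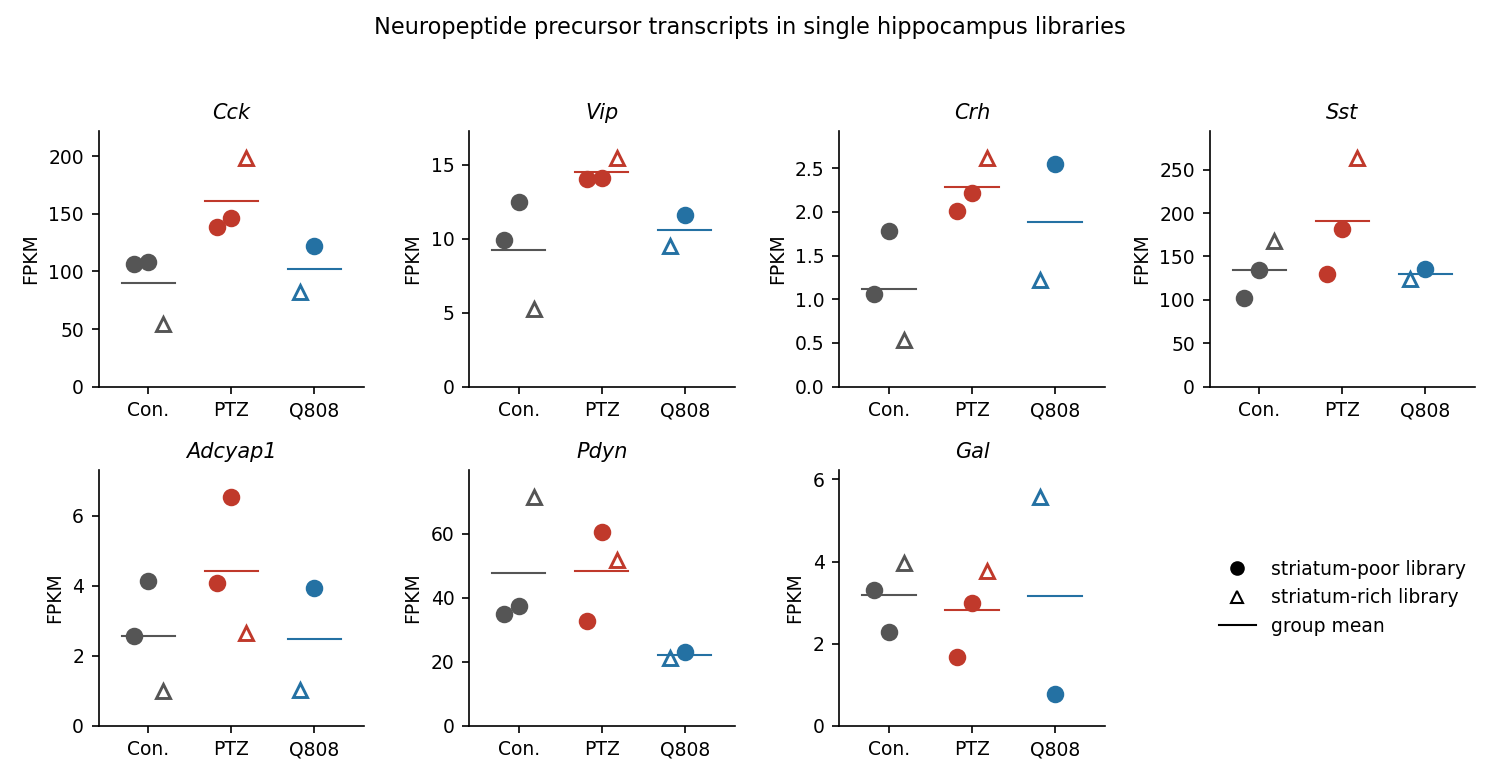
FPKM of the 7 detected neuropeptide precursors in each library by group, with circles for striatum-poor libraries, open triangles for striatum-rich libraries and a line at the group mean. *Cck*, *Vip* and *Crh* were higher in all 3 PTZ than in all 3 Con. libraries, and *Pdyn* was lower in both Q808 libraries than in the other 6.

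PTZ was compared with Con. for the state of kindled rats. A gene was called at an unadjusted limma p-value under 0.05 and more than 1.5-fold difference on log2(FPKM + 0.1). Of the 7 tested members, 3 were called, all of them higher in PTZ, against 2.53% of all tested genes called in either direction and 1.69% called higher. The median log2 fold change was 0.74 over the 7 members and -0.04 over all tested genes. For each of the 3 the lowest PTZ library lay above the highest Con. library, and 9.15% of all tested genes had groups apart in either direction.

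*Cck* encodes cholecystokinin, made by basket cells and also by principal cells. It had 106, 108 and 54.3 FPKM in Con.-1 to Con.-3 and 138, 146 and 198 in PTZ-1 to PTZ-3. The lowest PTZ library was above the highest Con. library, while Con.-3 was the lowest and PTZ-3 the highest of the 8. The log2 fold change was 0.89 ± 0.29 (SE), 1.86-fold, with limma adjusted p = 0.999. Without Con.-3 it was 0.57, under the fold limit, and without PTZ-3 it was 0.73, past the fold limit but with a p-value over 0.05.

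*Vip* encodes vasoactive intestinal peptide of interneurons that contact other interneurons. It had 9.90, 12.5 and 5.27 FPKM in Con.-1 to Con.-3 and 14.1, 14.1 and 15.4 in PTZ-1 to PTZ-3. The PTZ libraries were close together, and Con.-3 was again the lowest. The log2 fold change was 0.74 ± 0.31 (SE), 1.67-fold, with limma adjusted p = 0.999. The call was lost without any single library other than Con.-2, and the log2 fold change was 0.38 without Con.-3 and 1.00 without Con.-2.

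*Crh* encodes corticotropin-releasing hormone, a stress peptide that hippocampal interneurons also make. It had 1.06, 1.78 and 0.533 FPKM in Con.-1 to Con.-3 and 2.01, 2.22 and 2.61 in PTZ-1 to PTZ-3. No PTZ library was as low as a Con. library, though all values are low. The log2 fold change was 1.09 ± 0.42 (SE), 2.13-fold, with limma adjusted p = 0.999. This call too was lost without any single library other than Con.-2, with a log2 fold change of 0.68 without Con.-3.

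*Adcyap1* had 2.56, 4.14 and 0.985 FPKM in Con.-1 to Con.-3 and 4.08, 6.53 and 2.65 in PTZ-1 to PTZ-3. The groups overlapped, while each PTZ library was above the Con. library of the same number. No label states that these numbers pair rats. The log2 fold change was 0.88 ± 0.55 (SE) with limma adjusted p = 0.999. Without Con.-2 it was called at 1.32, and without Con.-3 it was 0.33. With the replicate number as a block, the same difference was called, with limma adjusted p = 0.724 in that fit and 0.483 to 1.00 over all alternatives; *Cck*, *Vip* and *Crh* were called in that fit too, and so were 3.95% of all tested genes. With the striatum set as a factor, those 4 members were called as well, against 4.29% of all tested genes, with limma adjusted p = 0.533 for *Adcyap1*.

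*Sst*, the precursor of somatostatin, had 102, 134 and 168 FPKM in Con.-1 to Con.-3 and 129, 182 and 263 in PTZ-1 to PTZ-3. The groups overlapped, while each PTZ library was above the Con. library of the same number, and the log2 fold change was 0.47 ± 0.29 (SE), with limma adjusted p = 0.999. It was called without PTZ-1, at 0.73. With the replicate number as a block the same 0.47 had an unadjusted p under 0.05 but lay under the fold limit, with limma adjusted p = 0.710 in that fit and 0.549 to 1.00 over all alternatives. *Pdyn* had 35.0, 37.3 and 71.4 FPKM in Con.-1 to Con.-3 and 32.6, 60.5 and 51.8 in PTZ-1 to PTZ-3. Its group means of 47.9 ± 20.4 and 48.3 ± 14.2 (SD, n = 3 each) were close, and the 95% confidence interval of the log2 fold change ran from -0.74 to 0.83. *Gal* encodes galanin, which reaches the hippocampus largely in incoming fibers. It had 3.32, 2.28 and 3.95 FPKM in Con.-1 to Con.-3 and 1.67, 2.99 and 3.77 in PTZ-1 to PTZ-3, with overlapping groups and an interval from -1.06 to 0.63.

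Markers of other tissue moved with these results. The summed FPKM of 6 hypothalamus markers was 3.00 to 5.23 in the Con. libraries, 10.5 to 18.7 in the PTZ libraries and 6.19 to 7.14 in the Q808 libraries. Of the 6, *Avp* and *Pomc* were called higher in PTZ than in Con., and *Oxt* was at 0 in Q808-2. *Hcrt*, *Oxt* and *Agrp* overlapped between Con. and PTZ. *Agrp* had 0.623, 0.481 and 0.419 FPKM in Con.-1 to Con.-3 and 0.672, 0.234 and 0.122 in PTZ-1 to PTZ-3. Of the 18.7 in PTZ-3, 10.6 came from *Pmch* alone. The part of the list in the differences of *Vip*, *Crh* and *Cck* was not tested. The 7 GABAergic interneuron markers were all above 0 in every library, with 0 of 7 called. Their summed FPKM was 178 to 428 in Con. and 238 to 310 in PTZ. By tissue it was 310 to 428 in the striatum-rich and 178 to 293 in the striatum-poor libraries. The group ranges therefore cannot be read as interneuron content alone.

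Within the striatum-poor libraries, PTZ-1 and PTZ-2 were compared with Con.-1 and Con.-2. Here 0 of 7 members were called by limma, against 9.81% of all tested genes, 4.1% higher and 5.71% lower. The median log2 fold change was -0.11 over all tested genes and 0.39 over the members. Relative to all genes the members thus lay higher than their values show. The 7 GABAergic interneuron markers had a median of 0.40 in the same libraries, so such a shift was not particular to the members. At an unadjusted p under 0.05 alone, 1 of the 7 members passed. It was *Cck*, with 106 and 108 FPKM against 138 and 146. Its log2 fold change was 0.41 ± 0.08 (SE), 1.32-fold and under the fold limit, with limma adjusted p = 0.106.

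At the same libraries *Vip* was at a log2 fold change of 0.34 ± 0.15 (SE) with limma adjusted p = 0.278. *Crh* was at 0.58 ± 0.31, *Sst* at 0.39 ± 0.20, *Adcyap1* at 0.65 ± 0.32, *Pdyn* at 0.30 ± 0.28 and *Gal* at -0.29 ± 0.34, all with limma adjusted p-values between 0.325 and 0.670. *Cck*, *Vip* and *Crh* did not overlap between the groups in these libraries either. Separation of 2 libraries from 2 is a weak criterion, and the share of all tested genes that met it was not computed. *Sst* was at 0.63 without PTZ-1. With the replicate number as a block *Adcyap1* was called here, with limma adjusted p = 0.110, and *Cck* reached an adjusted p of 0.0446 at the same 1.32-fold difference. Over all alternatives the adjusted p ran from 0.110 to 0.789 for *Adcyap1* and from 0.0446 to 0.486 for *Cck*.

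Other tissue differed in these 4 libraries too. All 6 choroid plexus markers were called lower in PTZ-1 and PTZ-2, by 2.01 to 2.91 on the log2 scale, and 3 of 6 hypothalamus markers, *Avp*, *Oxt* and *Pomc*, were called higher. The 7 interneuron markers summed to 178 and 244 FPKM in Con.-1 and Con.-2 and to 238 and 293 in PTZ-1 and PTZ-2. Their part in the members' differences was not tested.

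The single striatum-rich pair, PTZ-3 and Con.-3, differed in the same direction for *Cck*, *Vip*, *Crh*, *Adcyap1* and *Sst*, and by more. The ratio was 3.65-fold for *Cck* against 1.32-fold in the striatum-poor libraries, 2.89-fold against 1.26-fold for *Vip* and 4.29-fold against 1.5-fold for *Crh*. For *Adcyap1* it was 2.53-fold against 1.57-fold, and for *Sst* 1.56-fold against 1.31-fold. *Pdyn* was 1.38-fold lower in PTZ-3 than in Con.-3 and 1.23-fold higher in the striatum-poor PTZ libraries. With 1 library on each side, these striatum-rich values have no replicate check and the difference between the sets was not tested.

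**Figure D3:**
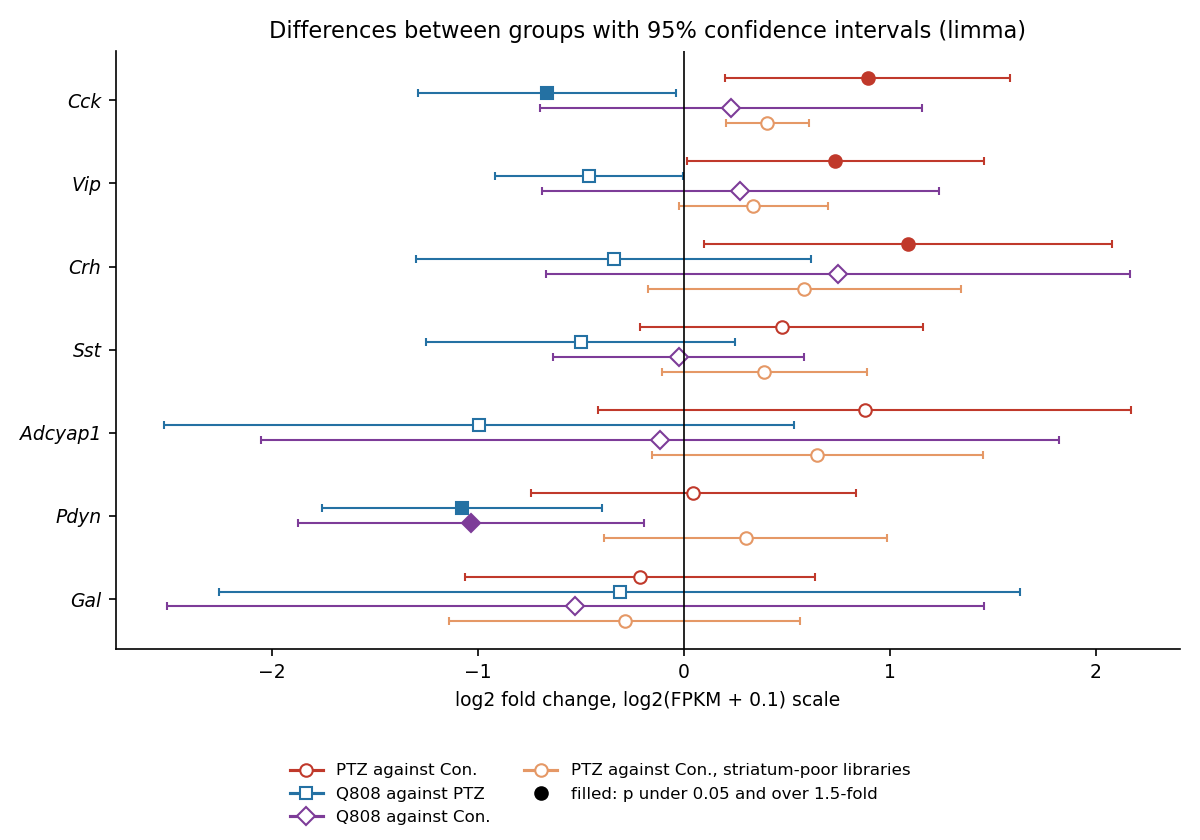
Log2 fold changes of the 7 members with 95% confidence intervals from limma in 4 comparisons, on the log2(FPKM + 0.1) scale, with filled symbols for calls. *Cck*, *Vip* and *Crh* lay above 0 in PTZ against Con., *Pdyn* lay below 0 in both Q808 comparisons, and the striatum-poor differences of *Cck*, *Vip* and *Crh* were smaller than those over all libraries.

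Q808 was compared with PTZ for the effect of treatment in kindled rats. Of the 7 members, 2 were called, both lower, against 1.92% of all tested genes called and 0.564% called lower. The median log2 fold change was -0.50 over the members and 0.10 over all tested genes. The PTZ libraries are the same as in the comparison with Con.

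*Pdyn* had 21.3 and 22.9 FPKM in Q808-1 and Q808-2 against 32.6 to 60.5 in PTZ. Both Q808 libraries, 1 of them striatum-rich and 1 striatum-poor, were below all 6 others. By summed FPKM of pan-neuronal markers, Q808-1 was the lowest library and Q808-2, at 1514, the lowest striatum-poor library. The part of such tissue content in the members' differences between Q808 and the other groups was not tested. The log2 fold change was -1.08 ± 0.28 (SE), 2.11-fold lower, with limma adjusted p = 0.952. It was called without each single library in turn, with values of -1.34 to -0.89. In the striatum-poor libraries alone, with 22.9 FPKM in Q808-2 against 32.6 and 60.5 in PTZ-1 and PTZ-2, it was -0.95 and not called.

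*Cck* had 82.1 and 122 FPKM in Q808-1 and Q808-2 against 138 to 198 in PTZ. The log2 fold change was -0.66 ± 0.26 (SE), 1.59-fold lower, with limma adjusted p = 0.952. The call was lost without any single library other than Q808-2, with values of -0.95 to -0.38, and the difference was -0.22 in the striatum-poor libraries. *Vip* had 9.51 and 11.6 FPKM in Q808 and was below all PTZ libraries, with a log2 fold change of -0.46 ± 0.19 (SE), limma adjusted p = 0.952, under the fold limit, and -0.27 in the striatum-poor libraries. *Vip*, *Cck* and *Pdyn* were the 3 members whose Q808 and PTZ libraries did not overlap, as for 15.6% of all tested genes.

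*Adcyap1* had 1.02 FPKM in Q808-1, below all PTZ libraries and within the Con. range, and 3.93 in Q808-2, within the range of both groups. Against PTZ the log2 fold change was -0.995 ± 0.63 (SE) with limma adjusted p = 0.952. It was called at -1.92 without Q808-2 and was at -0.072 without Q808-1 and at -0.39 in the striatum-poor libraries, neither of them called. *Sst* had 124 and 135 FPKM, both within the range of Con. and close to PTZ-1, and was called lower than in PTZ only when PTZ-1 was the library left out, at -0.75. *Crh* had 1.22 and 2.55, and *Gal* 5.56 and 0.775, which were the highest and the lowest *Gal* values of all 8 libraries. *Gal* in the 2 Q808 rats therefore spanned more than the other 6 together, and its 95% confidence interval against PTZ ran from -2.26 to 1.63. Without Q808-1, *Gal* was called lower than in PTZ at -1.66, and without Q808-2 it was at 1.03. Q808-1 is striatum-rich and Q808-2 striatum-poor, and *Gal* was higher in every striatum-rich than in every striatum-poor library. The part of striatum content in the *Gal* values was not tested.

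Q808 was compared with Con. to see which members differed from rats that were never kindled. Of the 7 members, 1 was called, against 3.46% of all tested genes called and 0.391% called lower. *Pdyn* was 2.05-fold lower, with a log2 fold change of -1.03 ± 0.34 (SE), limma adjusted p = 0.901. In both Q808 libraries it was below the lowest Con. library at 35.0 FPKM, and the call was lost without Q808-1 at -0.98 and without Q808-2 at -1.09. In the striatum-poor libraries, with Q808-2 alone against Con.-1 and Con.-2, it was called at -0.65. *Cck* at 0.23 ± 0.37 and *Vip* at 0.27 ± 0.39 overlapped with Con. With the striatum set as a factor, *Crh* was called higher at 0.94 with limma adjusted p = 0.457 (0.457 to 1.00 over all alternatives), beside *Pdyn*, against 6.53% of all tested genes.

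The promoters of 6 members were in the RefSeq table of the GRCr8 assembly, as windows of 250 bases before to 50 after the start site. They were searched on both strands for the cAMP response element TGACGTCA, through which CREB drives activity-dependent transcription, and for its core TGACG, which the element contains. The element was in 1 of the 6, that of *Sst*, and in 1.83% of 33469 promoters. The core was in 3 of the 6, those of *Sst*, *Vip* and *Gal*, and in 21.2% of promoters. The promoters of *Npy*, *Adcyap1* and *Pdyn* held neither in the window searched. Those of *Sst*, *Vip* and *Pdyn* are shown from 180 bases before to 20 after the start, with the element or core in capitals. The windows are chr11:90461366-90461565 on the plus strand for *Sst*, chr1:44470300-44470499 on the plus strand for *Vip* and chr3:137366484-137366683 on the minus strand for *Pdyn*.
Sst: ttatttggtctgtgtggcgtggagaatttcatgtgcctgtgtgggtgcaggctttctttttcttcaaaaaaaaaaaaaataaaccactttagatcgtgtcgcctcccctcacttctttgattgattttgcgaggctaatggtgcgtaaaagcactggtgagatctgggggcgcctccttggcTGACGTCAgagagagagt
Vip: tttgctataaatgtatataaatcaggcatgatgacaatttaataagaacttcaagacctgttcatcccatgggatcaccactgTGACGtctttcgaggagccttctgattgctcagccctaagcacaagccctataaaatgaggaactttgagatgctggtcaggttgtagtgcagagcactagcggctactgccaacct
Pdyn: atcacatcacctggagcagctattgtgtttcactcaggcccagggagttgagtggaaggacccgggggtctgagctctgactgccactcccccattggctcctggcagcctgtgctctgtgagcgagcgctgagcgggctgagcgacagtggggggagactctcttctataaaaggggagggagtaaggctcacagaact

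The element lay at bases 3 to 10 after the annotated start of *Sst*, and the core lay at bases -97 to -93 of *Vip* and -63 to -59 of *Gal*. These matches are letters in a window and were not tied to any measured binding. *Cck* and *Crh* had no promoter in the table and were not searched.

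The profile of each member over the 8 libraries was set against the 12563 genes whose FPKM averaged 1 or more, as the root mean square difference of centered log2(FPKM + 0.1) values. The libraries differ in tissue content, which all genes of a library share, and 8 points are few. For *Cck* the most alike gene was *Vip* at 0.17, followed by *Cfap90* at 0.21 and *Stx1a* at 0.23. For *Vip* they were *Cfap90* at 0.16, *Cck* at 0.17 and *Pnpla3* at 0.18, and for *Crh* they were *Vip* at 0.29, *Cfap90* at 0.30 and *Cck* at 0.30. *Cck* and *Vip* were thus on each other's lists and both on that of *Crh*, which was on neither of theirs. *Cfap90* had 6.23 to 11.1 FPKM in Con., 13.1 to 15.6 in PTZ and 8.41 to 13.2 in Q808.

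*Sst* followed another profile, most like *Gap43*, the growth-associated protein of axons, at 0.14, *Dpp10* at 0.17 and *Gpc6* at 0.17. *Adcyap1* was most like *Fezf2* at 0.24, *Nwd2* at 0.28 and *Bmp3* at 0.28, and was low in all 3 striatum-rich libraries, between 0.985 and 2.65 FPKM. *Pdyn* was most like *Gpr137c* at 0.24, *Nyap2* at 0.28 and *Kcnv1* at 0.29. *Gal* had no close neighbor, with *Rpl39-ps12* at 0.35, an entry with no symbol at 0.39 and *Kcne5* at 0.40.

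Receptors of the members were followed next, with 16 of 19 tested. In PTZ against Con. the median log2 fold change of the list was 0.01. Here 1 receptor was called higher and 0 lower, against 2.53% of all tested genes called. It was *Vipr1*, the VPAC1 receptor shared by VIP and PACAP, with 2.29, 2.84 and 2.18 FPKM in Con.-1 to Con.-3 and 5.85, 10.8 and 2.77 in PTZ-1 to PTZ-3. PTZ-3 lay inside the Con. range, and the log2 fold change was 1.18 ± 0.46 (SE) with limma adjusted p = 0.999. The call held without PTZ-3 and was lost without any of the other 5 libraries, at values down to 0.71 without PTZ-2. In the striatum-poor libraries *Vipr1* was called at 1.60 ± 0.31, 3.04-fold, with limma adjusted p = 0.103, and it was called without each of the 4 libraries in turn.

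Within the striatum-poor libraries 5 of the 16 receptors were called, 2 higher and 3 lower. Of all tested genes 9.81% were called there, 4.1% higher and 5.71% lower. All 3 tested receptors of neuropeptide Y in the list were lower in PTZ. *Npy5r* had 2.48 and 2.20 FPKM in Con.-1 and Con.-2 and 0.865 and 0.444 in PTZ-1 and PTZ-2, a log2 fold change of -1.75 ± 0.35 with limma adjusted p = 0.106. *Npy1r* had 7.05 and 8.07 against 3.91 and 4.34, and *Npy2r* had 6.47 and 7.88 against 4.99 and 2.88. In the striatum-rich pair the order was the opposite for all 3, with 4.01 FPKM in Con.-3 and 7.26 in PTZ-3 for *Npy1r*, 0.802 and 1.84 for *Npy2r* and 0.566 and 1.27 for *Npy5r*, and over all libraries none of these 3 was called in PTZ against Con. The call of *Npy2r* was lost without Con.-1, Con.-2 or PTZ-2, with values of -1.28 to -0.51 over the 4 libraries left out.

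*Cckbr*, the brain receptor of CCK, was the other receptor called higher in these libraries, at 3.01 and 4.88 FPKM against 6.96 and 15.7, with a log2 fold change of 1.42 ± 0.42. It was not called without Con.-1, at 1.08, or without PTZ-2, at 0.84. In the striatum-rich pair the order was the opposite, with 11.3 FPKM in Con.-3 and 9.62 in PTZ-3. In Q808 against PTZ, 1 of 16 receptors was called, *Cckar*, at no more than 0.429 FPKM in any library and at 0 in Con.-1 and PTZ-2; it was called only when Q808-2 was the library left out. In Q808 against Con., *Crhr1*, the main CRH receptor, was called higher, with 1.15, 1.01 and 1.20 FPKM in Con. and 2.18 and 1.74 in Q808, a log2 fold change of 0.75 ± 0.26 with limma adjusted p = 0.901. Its call was lost without Con.-1 at 0.77, Con.-2 at 0.69 or Q808-1 at 0.60.

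**Figure D4:**
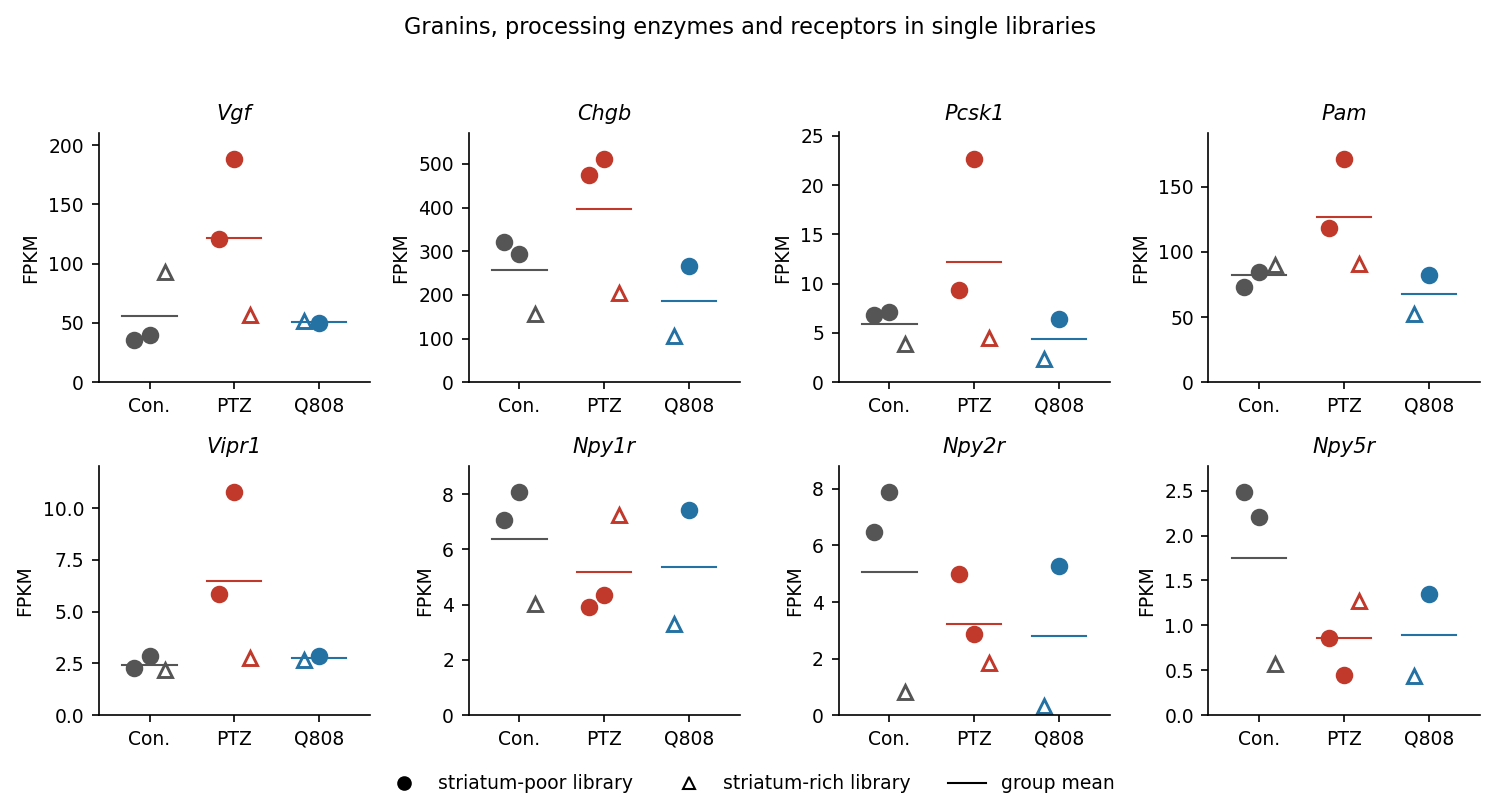
FPKM of 2 granins, 2 processing enzymes and 4 receptors in each library by group, with circles for striatum-poor libraries, open triangles for striatum-rich libraries and a line at the group mean. PTZ-1 and PTZ-2 were above Con.-1 and Con.-2 for *Vgf*, *Chgb*, *Pcsk1*, *Pam* and *Vipr1* and below them for the 3 *Npy* receptors, while PTZ-3 lay within the Con. range for all of them but *Pam*.

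Granins and other dense-core vesicle proteins, which package peptides for release, numbered 9, and all were tested. In PTZ against Con. 0 of 9 were called by limma, and 0 had an unadjusted p under 0.05. In the striatum-poor libraries 2 of 9 were called, both higher, against 9.81% of all tested genes called and 4.1% called higher. Both passed a limma adjusted p of 0.05, as did 140 of all 15593 tested genes. *Vgf*, an activity-induced granin-like precursor, had 35.5 and 40.1 FPKM in Con.-1 and Con.-2 and 121 and 188 in PTZ-1 and PTZ-2, a 3.99-fold rise with a log2 fold change of 2.00 ± 0.21 (SE), limma adjusted p = 0.0298. In the striatum-rich pair the order was the opposite, with 93.1 in Con.-3 and 56.6 in PTZ-3, and over all libraries *Vgf* was not called, at 1.09 ± 0.51. The limma adjusted p of *Vgf* in the striatum-poor libraries ran from 0.00368 to 0.338 over the alternatives, and that of *Chgb* from 0.0192 to 0.378. *Pcsk1n*, which encodes the convertase inhibitor proSAAS, was called higher in Q808 than in PTZ and than in Con., but was at 0.689 FPKM or less in every library, and the files hold a separate proSAAS entry, so its value is uncertain. *Chgb*, chromogranin B, rose 1.60-fold, from 321 and 293 to 474 and 511 FPKM, with limma adjusted p = 0.0499. Both were called without each of the 4 libraries in turn.

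Among 11 enzymes of peptide processing and clearance, 1 was called in PTZ against Con., against 2.53% of all tested genes. It was *Dpp4*, a peptidase that clips several neuropeptides, at 0.982 FPKM or less in every library. Its call was lost without Con.-1, Con.-2, PTZ-2 or PTZ-3. In the striatum-poor libraries 4 of 11 were called, all higher, against 9.81% of all tested genes called and 4.1% called higher. *Pcsk1*, the prohormone convertase that cuts many precursors, had 6.83 and 7.10 FPKM in Con.-1 and Con.-2 and 9.41 and 22.6 in PTZ-1 and PTZ-2, with limma adjusted p = 0.230, and it was not called without Con.-1, Con.-2 or PTZ-2, at values down to 0.43. *Pam*, which amidates peptides such as VIP and CCK, had 73.2 and 85.0 against 119 and 171 FPKM, a log2 fold change of 0.85 ± 0.19 with limma adjusted p = 0.124. *Pcsk5* at 0.78 ± 0.18 and *Dpp4* at 1.07 ± 0.43 were the others, and only *Dpp4* of these lost its call when a library was left out (Con.-1, Con.-2 or PTZ-2). *Pam* was called lower in Q808 than in PTZ, at -0.90 ± 0.33 with limma adjusted p = 0.952, from 90.6 to 171 FPKM in PTZ to 52.3 and 82.4 in Q808, and it was not called without PTZ-1 at -0.92, PTZ-2 at -0.66 or Q808-1 at -0.57.

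Of 11 other neuropeptide precursors, 10 were tested. *Cort*, which encodes cortistatin, a relative of somatostatin that binds the same receptors, was the single one called in PTZ against Con. It had 7.22, 7.70 and 4.04 FPKM in Con.-1 to Con.-3 and 8.90, 13.6 and 12.8 in PTZ-1 to PTZ-3, with no overlap, and a log2 fold change of 0.91 ± 0.29 with limma adjusted p = 0.999. It was not called without PTZ-2 at 0.80 or PTZ-3 at 0.84, nor in the striatum-poor libraries, at 0.55 ± 0.22 and under the fold limit. In those libraries *Pnoc*, the nociceptin precursor, was called higher at 0.65 ± 0.14 and *Nmb*, the neuromedin B precursor, lower at -0.62 ± 0.24. Of all tested genes 9.81% were called there. The call of *Pnoc* was lost without PTZ-2 at 0.54, and that of *Nmb* was held only without Con.-2. In Q808 against PTZ and in Q808 against Con. 0 of 10 were called by limma or had an unadjusted p under 0.05, and the median log2 fold changes of the list were -0.61 and -0.03.

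*Penk* and *Tac1* are precursors that the striatum makes in large amounts. *Penk* had 283 to 798 FPKM in the 3 striatum-rich libraries and 14.7 to 52.9 in the 5 others, and *Tac1* had 105 to 217 against 5.65 to 10.9. Of the 7 tested members, *Gal* was the one whose ranges did not overlap between these sets. It had 3.77 to 5.56 FPKM in the striatum-rich and 0.775 to 3.32 in the striatum-poor libraries. The share of all tested genes apart between these sets was not computed. *Pdyn* overlapped, with its highest value, 71.4 FPKM, in Con.-3, the library highest in striatum markers, and its lowest, 21.3, in striatum-rich Q808-1.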

How the data were processed

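Hippocampal RNA of 8 rats (3 Con., 3 PTZ and 2 Q808) was sequenced after poly(A) capture. Reads were trimmed by the authors with Trimmomatic, and the deposited values are FPKM per gene from Cufflinks. The submitters' processing notes also name HISAT2, Bowtie2, StringTie, SAMtools, HTSeq and DESeq, with no versions; the genome build is not given in the sources used here. Total depth is not in the deposited FPKM. The steps of low values, which 1 read sets, put depth at 0.854 to 1.19 times that of Con.-1, from the 23.6% to 27.9% of low genes that lay within 0.02 log2 of the most frequent ratio, so precision is given by the spread between rats.

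Symbols for 20633 of 22601 genes came from the RefSeq table of GRCr8. Of all 22601 genes, with or without a symbol, 15593 averaged 0.1 FPKM or more. These were fitted with limma 3.58.1 in R 4.3.3 on log2(FPKM + 0.1), with a trend and each comparison on its own libraries. The scale understates changes of low genes. p-values were adjusted over all tested genes by Benjamini-Hochberg. Unadjusted p-values were used for calls and are not printed. Python 3.11.15 was used for joins and figures. The procedure was tested on simulated data.

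The members, lists and striatum division were chosen with earlier results of these data known. Members were named in every library, list genes where called, and the 3 most alike genes for each member spanning over 1 on the log2 scale. No label states that the numbers pair Con. and PTZ libraries by litter or day. Deviations of same-numbered libraries from their group means correlated at 0.309, 0.392 and 0.472 over 12563 genes. Those of Con.-2 and PTZ-1, with different numbers, correlated at 0.452, above the 0.309 and 0.392. The 0.472 is that of Con.-3 and PTZ-3, which are both striatum-rich. The data therefore do not single out a pairing by number, and the replicate block is an alternative only. Alternatives were pseudocounts of 1 and 0.01, all genes above 0, a mean FPKM of 1 or more, quantile and median ratio scaling, no trend, a 2-fold limit, all groups in 1 fit, a replicate block, the striatum set as a factor, striatum-poor libraries alone, and each library left out.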

Additional observations from a re-analysis of the deposited data

How the results depend on the processing

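Where a left-out library leaves 1 sample in a group, that sample is assumed to vary like the other group. In PTZ against Con., 3 members were called, and 1 with all genes above 0 or at a 2-fold limit. The other settings gave 2 to 4, including 4 with the replicate block and 4 with the striatum set as a factor. Leaving out each library gave 0 to 4, with 0 without Con.-3 and without PTZ-3. In Q808 against PTZ, 2 were called. The number was 1 with all genes above 0, quantile normalization, no trend, a 2-fold limit or all 3 groups in 1 fit, each time *Pdyn*, and 1 in the striatum-poor libraries alone, *Gal*. Leaving out each library gave 1 to 4. In Q808 against Con., 1 was called, and 2 with the striatum set as a factor or in the striatum-poor libraries alone. Leaving out each library gave 0 to 1. Within the striatum-poor libraries 0 were called in PTZ against Con., 1 with the replicate block and 0 to 2 with each library left out. Calls over all tested genes under settings that keep all libraries of a comparison ran from 191 to 669 around 395 in PTZ against Con., from 183 to 1894 around 300 in Q808 against PTZ, from 257 to 1076 around 540 in Q808 against Con. and from 668 to 1670 around 1530 in the striatum-poor libraries.

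Signs turned for members whose main value was near 0 or whose 2 Q808 rats differed. In the striatum-poor libraries alone *Crh* was at 0.26 in Q808 against PTZ, and *Sst* at 0.21 and *Adcyap1* at 0.26 in Q808 against Con. In Q808 against Con., *Sst* was at 0.0098 with quantile normalization, and with the replicate block *Sst* was at 0.15, *Vip* at -0.080 and *Cck* at -0.10. *Adcyap1* was at 0.17 with the striatum set as a factor. The numbers do not pair PTZ or Con. with Q808, and in Q808 against PTZ the block called 2 members, *Pdyn* and *Adcyap1*, and 1894 of all tested genes against 300 without it. The cause of these turns was not tested.

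With each library left out in turn, the log2 fold change ran from -0.14 to 0.37 for *Pdyn* and from -0.46 to 0.11 for *Gal* in PTZ against Con. In Q808 against PTZ it ran from -0.84 to 0.16 for *Crh* and from -1.66 to 1.03 for *Gal*. In Q808 against Con. it ran from -0.21 to 0.15 for *Sst*, from -0.080 to 0.54 for *Vip*, from -0.10 to 0.52 for *Cck*, from -1.04 to 0.81 for *Adcyap1* and from -1.87 to 0.82 for *Gal*. Within the striatum-poor libraries it ran from -0.14 to 0.74 for *Pdyn* and from -0.69 to 0.11 for *Gal*. Of the members' values under all alternatives, 382 kept their direction and their status as called or not called. A further 17 became calls, 31 lost a call and 25 turned sign. The 382 include members not called in the main fit that stayed so, while only called members could give the 31. The 382 therefore do not measure how often calls held.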
